A study of Homo sapiens with 4 samples.

Results

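The 10 genes described here are the 5 subunits of the transcription factor NF-κB (NFKB1, NFKB2, RELA, RELB and REL), 2 of its IκB inhibitors (NFKBIA and NFKBIE) and 3 further feedback regulators (TNFAIP3, TNIP1 and IER3). They were taken from the gene table by Entrez identifier, matched to RefSeq symbols, and all 10 were found among its 16658 genes. RNA was sequenced from untreated WT cells and from untreated ZCCHC4 KO1 cells, a CRISPR/Cas9 knockout line of ZCCHC4, with 2 libraries per group and 4 in all. Both groups carry the label HepG2, a line established from a human liver tumor, and were grown in DMEM with fetal bovine serum. ZCCHC4 KO1 is one knockout line, so the effect of the knockout and properties of this line cannot be told apart. Nothing in the labels says that replicates came from separate cultures, and p-values then measure only the spread between these libraries.

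NF-κB dimers wait in the cytoplasm, held there by IκB proteins. When a receptor signals, the IκB kinase marks IκB for degradation, the dimers enter the nucleus and bind short κB sites near their target genes. Several targets encode brakes of the same pathway, so that NFKBIA, NFKBIE, TNFAIP3, TNIP1 and IER3 are commonly induced by the factor they restrain. In liver cells the pathway is known for protection from cell death triggered by tumor necrosis factor.

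Promoter stretches with κB matches are shown first, since several of these genes are known targets of the factor they belong to. RefSeq promoter windows of GRCh38.p14, from 250 bases before to 50 bases after a transcription start, were found for 7 of the 10 genes, with 12 windows in all. RELB, NFKBIE and IER3 were not matched. The κB consensus, searched on both strands with overlapping matches merged, was found in 7 of the 12 windows and in 6 of the 7 genes. It was found in 6.78% of the 12928 windows of the genes tested below. RELA was the gene without a match in its windows. The stretches around the matches are printed 5′ to 3′ on the strand of the gene, with the matches in capitals, and where an annotated UTR of another transcript covers the match only 30 bases are given.

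NFKB1, plus strand of chr4:102501239-102501329, bases -120 to -30 from the start: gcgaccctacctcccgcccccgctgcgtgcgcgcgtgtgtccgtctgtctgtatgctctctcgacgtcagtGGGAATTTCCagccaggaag
NFKB2, plus strand of chr10:102394462-102394491, bases -116 to -87 from the start: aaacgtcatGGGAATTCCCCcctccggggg
REL, plus strand of chr2:60881518-60881547, bases -56 to -27 from the start: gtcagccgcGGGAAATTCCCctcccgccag
NFKBIA, minus strand of chr14:35404770-35404869, bases -120 to -21 from the start: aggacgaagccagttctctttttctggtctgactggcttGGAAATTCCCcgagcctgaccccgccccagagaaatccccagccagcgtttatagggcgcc
TNFAIP3, plus strand of chr6:137867139-137867213, bases -120 to -46 from the start: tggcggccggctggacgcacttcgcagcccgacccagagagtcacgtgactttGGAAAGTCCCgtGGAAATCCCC
TNIP1, minus strand of chr5:151081057-151081086, bases -52 to -23 from the start: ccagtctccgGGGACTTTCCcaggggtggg

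TNFAIP3 carried a pair of matches in tandem, at bases -67 to -58 and -55 to -46. NFKBIA carried a single match at bases -81 to -72, and TNIP1 a single match at bases -42 to -33. NFKB2 had a second match in the same window, at bases -78 to -69, and in a further window matches at bases -176 to -167 and -21 to -12. A match describes letters only, and binding was not measured here.

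Positions of genes are those of RefSeq on GRCh38.p14. Expression was given as FPKM, which divides the fragments of a gene by its length and by the size of the library. FPKM values summed to between 512417.0 and 565198.6 per library, and they carry no read totals, so the depth and the counting error are unknown. ZCCHC4, the targeted gene, was at 7.22 and 5.44 FPKM in WT and at 1.08 and 2.29 FPKM in ZCCHC4 KO1. Both ZCCHC4 KO1 libraries lay below both WT libraries (log2 fold change -1.48, standard error 0.29, adjusted p = 0.0448 from limma, and 0.0514 without ZCCHC4 KO1 replicate 1). Genes that define hepatocytes were at very low values in the libraries labelled HepG2. Of 20 such genes 11 were found in the table, and 10 of these, AFP, SERPINA1 and HNF4A among them, stayed below 1 FPKM in all 4 libraries. The exception was CPS1, a urea cycle enzyme, and the 11 genes summed to 245.72 to 275.95 FPKM in WT and 128.82 to 180.13 FPKM in ZCCHC4 KO1. Markers of endothelium summed to at most 0.84 FPKM in any library, with 6 of 6 below 1 FPKM. Of the blood cell markers 5 of 10 were in the table, PTPRC was at 0.04 to 0.12 FPKM, and their sum, mostly CD68, was 16.43 to 18.05 FPKM in WT and 13.08 to 13.53 FPKM in ZCCHC4 KO1. Of the fibroblast markers 7 of 8 were in the table, and COL1A2 was at 0.00 to 0.01 FPKM. Their sum was 18.99 to 20.26 FPKM in WT and 8.61 to 11.83 FPKM in ZCCHC4 KO1. Most of it was COL3A1 (15.44 and 14.76 FPKM in WT, 5.54 and 6.75 FPKM in ZCCHC4 KO1, adjusted p = 0.0263 from limma). LUM, at 1.86 and 1.39 FPKM in WT, had the higher mean in ZCCHC4 KO1 (1.81 and 3.79 FPKM). The groups of LUM overlapped (log2 fold change 0.49, adjusted p = 0.4 from limma). In such bulk RNA fewer cells of a type and less RNA per cell cannot be told apart, and the part of these markers in the results was not tested.

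Of the 10 genes, 1 was called lower and 0 were called higher in ZCCHC4 KO1, with 9 of them tested. Called means an adjusted p below 0.05 from limma on log2(FPKM + 1), with Benjamini-Hochberg adjustment over all 10726 genes that reached 1 FPKM in at least 2 libraries. Among all genes tested 4.48% were called lower and 1.5% higher, which is 480 and 161 genes, against 721 and 466 with quantile normalization and 1342 and 776 with the GC trend removed. The gene that fell was TNFAIP3. At an unadjusted p under 0.05, 2 of the 9 were higher (NFKBIA and RELA) and 2 lower (TNFAIP3 and IER3), beside 961 higher and 1494 lower of the 10726 genes tested. In 5 of the 9 (NFKB2, RELA, RELB, NFKBIA and TNIP1) both ZCCHC4 KO1 libraries lay above both WT libraries, against 23.1% of all genes tested. In 2 of the 9 (TNFAIP3 and IER3) both lay below, against 28.5% of all genes tested. The median log2 fold change of the 9 was 0.31, beside -0.03 over all genes tested. With limits of 0.001 on the adjusted p and 2 on the fold, 0 of the 9 were called by limma, beside 0.0746% of all genes tested.

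**Figure D1:**
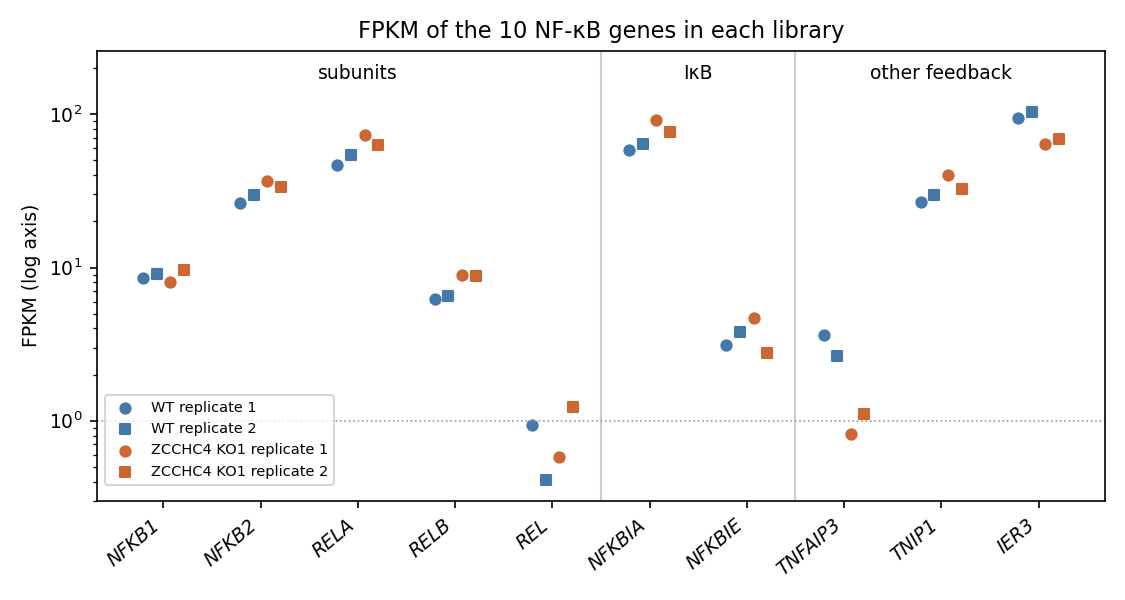
FPKM on a log axis of each of the 10 genes in the 2 WT and the 2 ZCCHC4 KO1 libraries, each point 1 library, with the dotted line at 1 FPKM. TNFAIP3 and IER3 sit lower in both ZCCHC4 KO1 libraries, while NFKB2, RELA, RELB, NFKBIA and TNIP1 sit higher in both.

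Among the subunits, RELA was the highest by level. It carries a transactivation domain and is the main partner of the NFKB1 product in the canonical pathway. RELA (chromosome 11, 65653601 to 65663857) was at 46.92 and 53.96 FPKM in WT and at 73.22 and 63.33 FPKM in ZCCHC4 KO1. The ZCCHC4 KO1 libraries were the higher ones, with means of 50.4 ± 4.98 and 68.3 ± 6.99 FPKM (SD, n = 2 each). The log2 fold change was 0.43 with a 95% interval from 0.06 to 0.80 and did not pass adjustment (adjusted p = 0.161 from limma). RELA made up 52.6% and 54.0% of the summed FPKM of the 5 subunits in WT, against 57.4% and 54.3% in ZCCHC4 KO1. The lncRNA RELA-DT on the opposite strand shares 103 exon bases with RELA, and whether counting used strand is not given.

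NFKB2 and RELB are the subunits of the non-canonical pathway, in which the NFKB2 precursor is processed to a subunit that pairs with RELB. NFKB2 (chromosome 10, 102394110 to 102402529) was at 26.57 and 29.84 FPKM in WT and at 36.67 and 33.63 FPKM in ZCCHC4 KO1. RELB (chromosome 19, 45001464 to 45038192) was at 6.19 and 6.55 FPKM in WT and at 8.97 and 8.79 FPKM in ZCCHC4 KO1. For both genes the groups did not overlap, with the ZCCHC4 KO1 libraries above. The log2 fold change was 0.31 for NFKB2 (95% interval -0.05 to 0.67, adjusted p = 0.28 from limma). It was 0.42 for RELB (95% interval -0.02 to 0.87, adjusted p = 0.234 from limma), and the intervals of both genes include no change. Among the 20 tested genes that lie nearest to RELB, 12 were above 0 and 8 below, and their median of 0.37 was the highest found around any of the 10 genes.

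NFKB1 encodes the precursor of the canonical DNA-binding partner of RELA. It (chromosome 4, 102501359 to 102617302) was at 8.58 and 9.13 FPKM in WT and at 8.09 and 9.69 FPKM in ZCCHC4 KO1. The WT values lay between those of ZCCHC4 KO1, and the log2 fold change was 0.00 (95% interval -0.46 to 0.46, adjusted p = 0.998 from limma). NFKB2 stood above NFKB1 by a ratio of 3.10 and 3.27 in the WT libraries and of 4.53 and 3.47 in the ZCCHC4 KO1 libraries.

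REL, the subunit best known from lymphocytes, was the lowest of the subunits. REL (chromosome 2, 60881574 to 60931612) was at 0.94 and 0.41 FPKM in WT and at 0.58 and 1.22 FPKM in ZCCHC4 KO1. The groups overlapped, and with 1 library above 1 FPKM it was not tested. Without the filter on low values its log2 fold change was 0.18 (adjusted p = 0.765 from limma). A lncRNA gene on the same strand shares 5702 exon bases with REL in GENCODE, and reads of that stretch could be divided between them.

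NFKBIA, the IκB that the pathway resynthesizes fastest, was the highest of the inhibitors. NFKBIA (chromosome 14, 35401513 to 35404749) was at 58.86 and 63.78 FPKM in WT and at 91.76 and 77.10 FPKM in ZCCHC4 KO1. Its means were 61.3 ± 3.48 and 84.4 ± 10.4 FPKM (SD, n = 2 each), and the groups did not overlap. The log2 fold change was 0.45 with a 95% interval from 0.09 to 0.81 and did not pass adjustment (adjusted p = 0.14 from limma). NFKBIE, which encodes a second IκB, was expressed at far lower levels. NFKBIE (chromosome 6, 44258166 to 44265551) was at 3.12 and 3.81 FPKM in WT and at 4.67 and 2.78 FPKM in ZCCHC4 KO1. Its ZCCHC4 KO1 libraries lay on either side of the WT libraries, and the log2 fold change was 0.06 (95% interval -0.59 to 0.70, adjusted p = 0.931 from limma).

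NFKBIA and RELA kept close to one ratio in every library. NFKBIA divided by RELA, in FPKM, was 1.25 and 1.18 in WT, against 1.25 and 1.22 in ZCCHC4 KO1. The groups overlapped in this ratio while both genes were higher in the ZCCHC4 KO1 libraries. This was not particular to the pair, since RELB divided by RELA also overlapped. That ratio was 0.13 and 0.12 in WT, against 0.12 and 0.14 in ZCCHC4 KO1. With 2 libraries against 2, an exact permutation test of a single value cannot give a two-sided p below 0.333, so such ratios are given without a test.

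TNFAIP3 encodes the ubiquitin-editing enzyme that shuts off signalling from the receptor complexes to the IκB kinase. TNFAIP3 (chromosome 6, 137866349 to 137883312) was at 3.61 and 2.65 FPKM in WT and at 0.82 and 1.11 FPKM in ZCCHC4 KO1. Every ZCCHC4 KO1 value was below every WT value, with means of 3.13 ± 0.679 and 0.965 ± 0.205 FPKM (SD, n = 2 each). The log2 fold change was -1.07 (standard error 0.21, 95% interval -1.59 to -0.55, adjusted p = 0.046 from limma), on a scale that understates the change of low values, and the ratio of the mean FPKM was 0.308. The call lay close to the limit. Among the settings that lost it were the fits without WT replicate 1 (-0.90, adjusted p = 0.218 from limma), without ZCCHC4 KO1 replicate 1 (-0.96, adjusted p = 0.0965 from limma) and with no filter on low values (adjusted p = 0.1). Leaving aside a crossed pairing of replicates added after the data were seen, 11 other settings could test TNFAIP3, 7 of them kept the call, and the adjusted p ranged from 0.00384 to 0.218. The antisense lncRNA WAKMAR2 shares 95 exon bases with TNFAIP3, and whether counting used strand is not given in the sources used here.

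TNIP1 encodes the ubiquitin-binding partner through which the TNFAIP3 enzyme is directed to its substrates. TNIP1 (chromosome 5, 151029943 to 151087685) was at 26.67 and 29.89 FPKM in WT and at 40.20 and 32.33 FPKM in ZCCHC4 KO1. Both ZCCHC4 KO1 libraries were higher, and the log2 fold change was 0.34 (95% interval -0.07 to 0.75, adjusted p = 0.295 from limma). TNIP1 divided by TNFAIP3, in FPKM, was 7.39 and 11.3 in WT, against 49.0 and 29.1 in ZCCHC4 KO1. The ratio was higher in both ZCCHC4 KO1 libraries than in either WT library.

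IER3, an immediate early gene whose product acts on cell survival and restrains NF-κB activity, had the highest FPKM of the 10 genes in WT. IER3 (chromosome 6, 30743199 to 30744547) was at 94.16 and 103.26 FPKM in WT and at 64.00 and 69.40 FPKM in ZCCHC4 KO1. The groups did not overlap, with means of 98.7 ± 6.44 and 66.7 ± 3.82 FPKM (SD, n = 2 each). The log2 fold change was -0.56 with a 95% interval from -0.88 to -0.24, and it missed the limit (adjusted p = 0.0708 from limma). IER3 was called lower with quantile normalization (adjusted p = 0.0254), with the GC trend removed (adjusted p = 0.0167) and without ZCCHC4 KO1 replicate 2 (adjusted p = 0.0312), and over 12 other settings, the crossed pairing left aside, the adjusted p ranged from 0.0167 to 0.541. Its exons share 440 bases with the antisense gene IER3-AS1 and 85 bases with HCG20, also on the opposite strand. Of the 20 nearest tested genes 15 were lower (median log2 fold change -0.14). Over all genes tested, 5708 of 10726 were lower. Of the 20 nearest genes, 16 were lower around NFKBIE and 14 around NFKB1, whose own groups overlapped.

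The order of the levels differed at the top. FPKM is scaled by length, so levels of different genes can be set side by side. In WT the order was IER3, NFKBIA, RELA, TNIP1, NFKB2, NFKB1, RELB, NFKBIE, TNFAIP3 and REL, and neighbours overlapped for TNIP1 with NFKB2 and for NFKBIE with TNFAIP3. In ZCCHC4 KO1 the order was NFKBIA, RELA, IER3, TNIP1, NFKB2, NFKB1, RELB, NFKBIE, TNFAIP3 and REL, and neighbours overlapped for RELA with IER3, TNIP1 with NFKB2, NFKB1 with RELB and TNFAIP3 with REL. NFKBIA divided by IER3 was 0.625 and 0.618 in WT, against 1.43 and 1.11 in ZCCHC4 KO1. NFKBIA divided by TNFAIP3 was 16.3 and 24.1 in WT, against 111.9 and 69.5 in ZCCHC4 KO1. Both of these ratios were higher in the ZCCHC4 KO1 libraries than in the WT libraries. They were not tested, and TNFAIP3 was at only 0.82 and 1.11 FPKM in ZCCHC4 KO1.

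**Figure D2:**
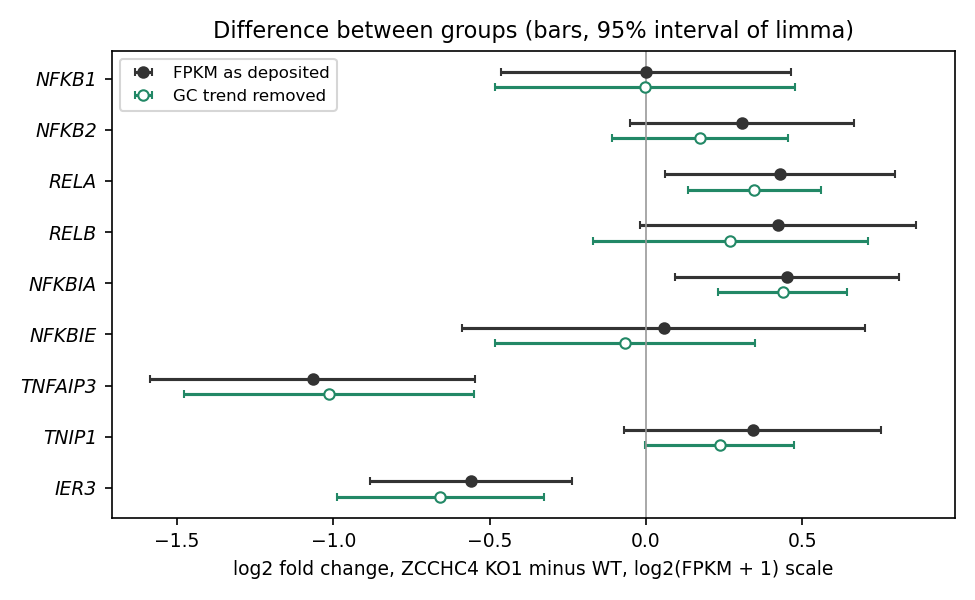
Log2 fold change of ZCCHC4 KO1 minus WT on the log2(FPKM + 1) scale for the 9 genes tested, with the 95% interval of limma, for FPKM as deposited (filled) and after a trend on GC content was removed from each library (open). The intervals of RELA, NFKBIA, TNFAIP3 and IER3 leave out 0 in both fits, and that of TNFAIP3 lies lowest, from -1.59 to -0.55 as deposited.

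Replicates of a group differed along GC content, and the 10 genes followed this in part. The GC content of a transcript and the difference of replicate 2 from replicate 1 had a Spearman correlation of 0.706 for WT and -0.764 for ZCCHC4 KO1, over 10559 genes that share these libraries. With the difference between the groups the correlation was 0.183. REL and TNFAIP3, with a GC content of 38.7% and 47.8%, were lower in WT replicate 2 (-0.46 and -0.34 on the log2 scale) and higher in ZCCHC4 KO1 replicate 2 (0.49 and 0.21). NFKBIA, RELA, TNIP1, NFKBIE, NFKB2 and RELB, from 52.1% to 64.9% GC, went the opposite way in both groups. NFKB1 and IER3 were higher in replicate 2 of both groups. Removal of the GC trend lowered the log2 fold change of NFKB2 from 0.31 to 0.17 and of RELB from 0.42 to 0.27. It also lowered that of TNIP1 from 0.34 to 0.24 and of NFKBIE from 0.06 to -0.07, and none of these was called. RELA fell from 0.43 to 0.35, and NFKBIA stayed near its value (0.45 and 0.44). IER3 moved from -0.56 to -0.66 and TNFAIP3 from -1.07 to -1.01. With the GC trend removed, NFKBIA (log2 fold change 0.44, adjusted p = 0.0131, and also called without ZCCHC4 KO1 replicate 2, adjusted p = 0.0405) and RELA (0.35, adjusted p = 0.0342) were called higher, so that 2 genes were higher and 2 lower by limma. Over 12 other settings, again without the crossed pairing, the adjusted p ranged from 0.0131 to 0.784 for NFKBIA and from 0.0342 to 0.871 for RELA.

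**Figure D3:**
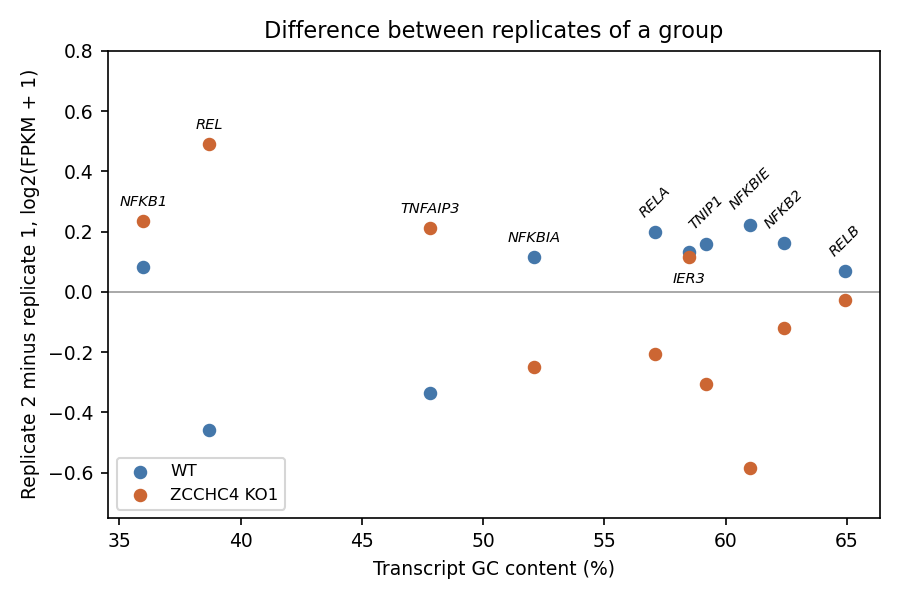
Difference between replicate 2 and replicate 1 on the log2(FPKM + 1) scale against transcript GC content in percent, for the 10 genes in WT and in ZCCHC4 KO1, each point 1 gene in 1 group. The 2 groups lie on opposite sides of 0 for 8 of the 10 genes, the exceptions being NFKB1 and IER3.

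The rest of the signalling route was examined with a list of 36 adaptors, ubiquitin ligases and kinases and a list of 21 further inhibitors. Of these 57 genes 51 were tested, and 0 were called higher and 0 lower by limma, beside 1.5% and 4.48% of all genes tested. At an unadjusted p under 0.05, 4 of the 51 were higher and 0 lower, beside 961 and 1494 of the 10726 genes tested. The median log2 fold change of the 51 was 0.00, beside -0.03 over all genes tested. The 4 were chosen after their values were seen, and none passed adjustment. TNIP2, which encodes a relative of TNIP1, was at 22.27 and 25.66 FPKM in WT and at 46.80 and 37.91 FPKM in ZCCHC4 KO1 (log2 fold change 0.79, adjusted p = 0.0557 from limma). NFKBIB, which encodes another IκB, was at 21.80 and 25.82 FPKM in WT and at 33.55 and 31.99 FPKM in ZCCHC4 KO1 (0.45, adjusted p = 0.156 from limma). Both encode inhibitors of the pathway. IRAK1, a kinase of the interleukin and Toll-like receptor route, was at 167.06 and 196.52 FPKM in WT and at 282.89 and 219.08 FPKM in ZCCHC4 KO1 (0.46, adjusted p = 0.201 from limma). TAX1BP1, an adaptor of the TNFAIP3 enzyme, was at 18.80 and 8.44 FPKM in WT and at 26.38 and 44.40 FPKM in ZCCHC4 KO1 (1.37, adjusted p = 0.118 from limma). Over the 51 genes, both ZCCHC4 KO1 libraries lay above both WT libraries in 11, below in 10, and overlapped with them in 30. Among all genes tested, 23.1% lay above and 28.5% below in this way.

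Target genes of NF-κB outside the 10 genes were examined next. Of a list of 47 targets 41 were in the table and 21 were tested, with 4 called higher and 1 lower by limma, beside 1.5% and 4.48% of all genes tested. The list was written by hand with earlier results of these data known, so these shares cannot test for an excess of targets. The median log2 fold change of the 21 was 0.06. The 4 higher genes were LCN2, SAA1, ELF3 and IL32. LCN2, which encodes an iron-sequestering protein of the acute phase, was at 1.75 and 1.97 FPKM in WT and at 8.49 and 8.74 FPKM in ZCCHC4 KO1, and its log2 fold change of 1.75 was the largest of the list (standard error 0.19, adjusted p = 0.0108 from limma). SAA1, which encodes an acute phase apolipoprotein, was at 1.34 and 1.29 FPKM in WT and at 4.12 and 5.35 FPKM in ZCCHC4 KO1 (1.30, standard error 0.20, adjusted p = 0.0257 from limma). SAA1 has a near-identical copy in SAA2, at 0.18 and 0.49 FPKM in WT, against 0.53 and 0.70 FPKM in ZCCHC4 KO1, and reads could be divided between them. The call of SAA1 was lost without WT replicate 1 and with no filter on low values. ELF3, an epithelial transcription factor, was at 19.76 and 21.51 FPKM in WT and at 52.86 and 44.90 FPKM in ZCCHC4 KO1 (1.20, standard error 0.15, adjusted p = 0.0153 from limma). IL32, a cytokine gene, was at 10.08 and 10.13 FPKM in WT and at 21.47 and 27.33 FPKM in ZCCHC4 KO1 (1.18, standard error 0.18, adjusted p = 0.0249 from limma). The call of IL32 was also lost with no filter on low values. IFNGR2, a subunit of the interferon gamma receptor, was the target called lower, at 24.45 and 23.57 FPKM in WT and at 13.20 and 13.08 FPKM in ZCCHC4 KO1 (-0.82, standard error 0.15, adjusted p = 0.0376 from limma). The settings that lost this call included those without either WT replicate and with no filter on low values.

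A further 6 genes were described whatever their test, as common readouts of the pathway. CXCL8, the neutrophil chemokine gene, was listed at 0.03 and 0.09 FPKM in WT and at 0 in both ZCCHC4 KO1 libraries. IL6 was at 0.33 and 0.57 FPKM in WT and at 0.09 and 0.10 FPKM in ZCCHC4 KO1, and ICAM1, an adhesion receptor gene, at 0.15 and 0.13 FPKM in WT and at 0.76 and 0.96 FPKM in ZCCHC4 KO1. None of these 3 reached 1 FPKM, and they were not tested, but with no filter on low values ICAM1 was called higher (log2 fold change 0.70, adjusted p = 0.0423 from limma). CCL2, the monocyte chemokine gene, was at 9.42 and 8.71 FPKM in WT and at 4.23 and 5.52 FPKM in ZCCHC4 KO1, and missed the limit (log2 fold change -0.78, 95% interval -1.29 to -0.28, adjusted p = 0.0892 from limma). SOD2, the mitochondrial superoxide dismutase gene, was at 27.12 and 24.75 FPKM in WT and at 23.36 and 27.20 FPKM in ZCCHC4 KO1, with overlapping groups (-0.04, 95% interval -0.42 to 0.35, adjusted p = 0.921 from limma). BIRC3, which encodes a ubiquitin ligase of the receptor complex and stands on the signalling list, was at 2.66 and 0.99 FPKM in WT and at 1.25 and 2.82 FPKM in ZCCHC4 KO1 (0.12, 95% interval -0.83 to 1.07, adjusted p = 0.894 from limma).

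**Figure D4:**
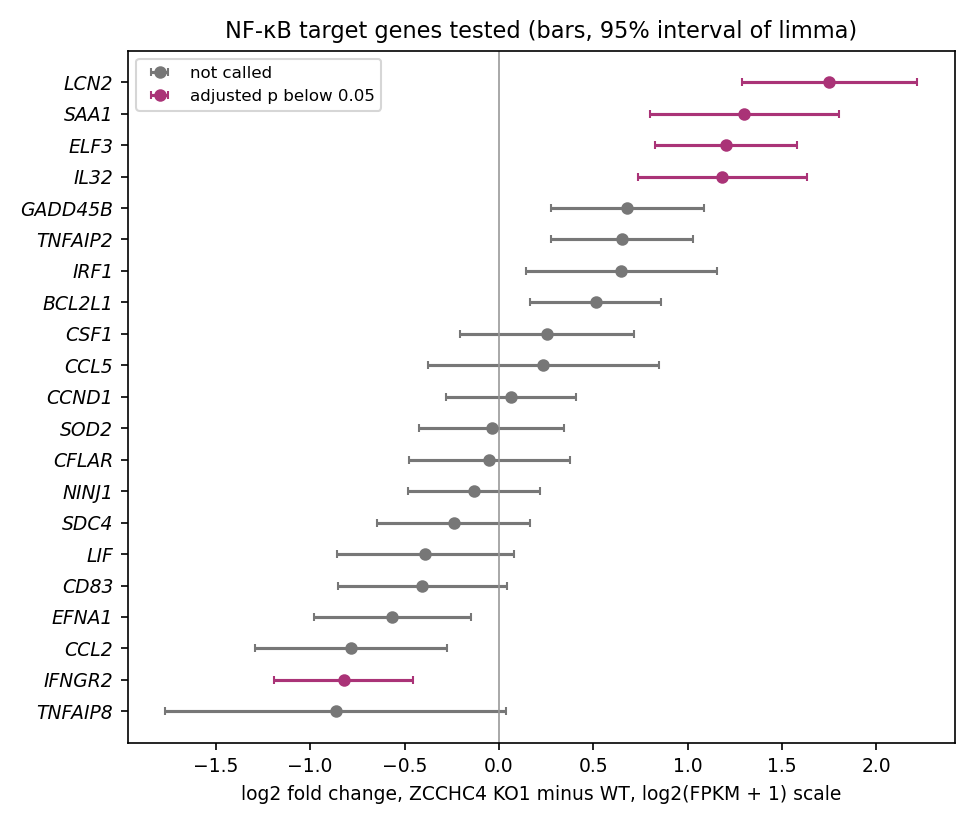
Log2 fold change of ZCCHC4 KO1 minus WT on the log2(FPKM + 1) scale with the 95% interval of limma for the 21 NF-κB target genes tested, in order of size, with called genes in color. LCN2, SAA1, ELF3 and IL32 lie highest, between 1.18 and 1.75, and IFNGR2 is the called gene below 0, at -0.82. The list was chosen with earlier results of these data known.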

How the data were processed

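FPKM values were deposited by the authors in 1 column per library, after alignment to GRCh38 by Bowtie2 and quantification by RSEM. Read filters, annotation and software versions are not given in the sources used here, and the sequencer is BGISEQ-500 in the methods and Illumina HiSeq in the labels. Entrez identifiers were matched to RefSeq symbols for 16384 of 16658 genes. Genes with at least 1 FPKM in at least 2 libraries entered limma (version 3.58.1, R 4.3.3) on the log2(FPKM + 1) scale (lmFit, eBayes with a trend, two-sided, Benjamini-Hochberg over 10726 genes), all 4 libraries in one fit. A figure legend of the paper gives limits on P, FDR and fold for differential genes, but no test is named. The fit was also run on simulated data, whose outcome is not given here, so that run lends the calls no support. GC content is that of the longest GENCODE v44 transcript. Promoters came from RefSeq for GRCh38.p14. Marker and pathway lists were written by hand. The 10 genes and all lists were chosen with earlier results of these data known. Named are the 10 genes, ZCCHC4, called list genes and CXCL8, CCL2, IL6, ICAM1, SOD2 and BIRC3, plus the genes said to be chosen on their values.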

Additional observations from a re-analysis of the deposited data

How the results depend on the processing

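Against 0 of the 10 genes called higher and 1 lower, the count of lower genes was 0 with no filter, 0 at a minimum of 5 FPKM (where TNFAIP3 was not tested), 0 under the replicate block and 0 with limits of 0.001 on the adjusted p and 2 on the fold. Quantile normalization gave 2, and removal of the GC trend gave 2, beside 2 higher. Without one library it ranged from 0 (without WT replicate 1 or ZCCHC4 KO1 replicate 1) to 2 (without ZCCHC4 KO1 replicate 2), with 0 to 1 higher. Signalling genes and further inhibitors, 0 and 0, had 1 higher at a minimum of 5 FPKM, 2 with median-ratio scaling, 3 with quantile normalization, 1 under the replicate block, and 3 higher and 2 lower once the GC trend was removed. Without one library 0 to 2 were higher and 0 to 3 lower, the upper ends without ZCCHC4 KO1 replicate 2. Targets, 4 higher and 1 lower, had 0 and 0 at the stricter limits, 0 lower with no filter, 0 lower under the replicate block, 8 and 4 once the GC trend was removed, and 3 to 7 higher and 0 to 3 lower without one library (0 lower without either WT replicate, 2 lower without ZCCHC4 KO1 replicate 1, 7 and 3 without ZCCHC4 KO1 replicate 2). A pseudocount of 0.1 and eBayes without a trend changed none of these counts by more than 1.5 times. ZCCHC4 had a log2 fold change of -1.923 at a pseudocount of 0.1 and of -1.476 without a filter, neither past the limit (adjusted p = 0.0551 and 0.115 from limma), and -1.807 to -1.145 without one library (adjusted p = 0.0514 without ZCCHC4 KO1 replicate 1). NFKB1 reversed to -0.003 and NFKBIE to -0.067 with the GC trend removed, and without one library they ranged from -0.116 to 0.118 and from -0.236 to 0.349. Over all genes, 161 higher and 480 lower became 82 and 262 with no filter, 466 and 721 after quantile normalization, 346 and 664 after median-ratio scaling, 107 and 355 under the replicate block, 776 and 1342 once the GC trend was removed, and 97 to 558 and 273 to 1037 without one library. For none of these was the cause tested.

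The replicate numbers are shared by both groups, but the labels name nothing else that pairs the libraries, and across genes the replicate differences of both groups were correlated at -0.787 (Pearson). With the crossed pairing, added after the data were seen, 5 of the 10 genes were higher and 2 lower, 11 and 13 of the signalling genes and further inhibitors, and 8 and 6 of the targets. Over all genes it called 2309 higher and 2986 lower. Either paired fit, and each fit without one library, left 1 residual degree of freedom. The paired fits and those without a WT replicate took one spread for all genes of a level. Under the replicate block TNFAIP3 had an adjusted p of 0.0825 from limma, and the target called lower, IFNGR2, was not called. Where a library was left out, the lone library of its group was taken to vary like the other group. Under the crossed pairing the adjusted p from limma was 4.42e-18 for TNFAIP3, 5.42e-08 for IER3, 1.6e-05 for NFKBIA and 5.15e-05 for RELA. Since no label gives that pairing and it was chosen after the data were seen, these p-values lend the calls no support. Library depth is unknown.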
